A study of Macaca fascicularis with 11 samples.

Results

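Extraembryonic mesenchyme (ExE-Mech)-like cells were examined in cynomolgus monkey embryos cultured in vitro to Day 10, Day 12 and Day 14, in the 6 wild-type (WT) libraries and in the ISL1 hypomorphic mutant library of Day 10. Each cell was given 4 scores, each the mean over a short gene list of ln(1 + UMIs per 10000), where a unique molecular identifier (UMI) stands for 1 captured transcript. The mesenchyme score used COL3A1, COL1A1, COL6A2, HGF, CCDC80, HAND2 and POSTN. The trophoblast score used CGA, XAGE3, PGF, KRT7, HSD3B1, VGLL1 and INSL4, the epiblast score POU5F1, IFITM1, L1TD1, DPPA4 and DNMT3B, and the endoderm score APOA1, TTR, FOXA2, SOX17, IHH and VTN. Cells whose mesenchyme score was the highest, with UMIs for at least 3 of its 7 genes, were the members, so that they were chosen by the measured UMIs of these genes. The rule found 745 members among the 7963 cells of these 7 libraries, out of 33330 cells in the 11 libraries of the series. The same scores placed 5387 cells in the trophoblast class, 1598 in the epiblast class and 209 in the endoderm class, and 24 cells in none. Because the 25 score genes chose the members, their levels are given as a description and were not tested.

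The WT libraries came from pools of 2 and 3 embryos at Day 10, 1 and 2 embryos at Day 12, and 2 embryos in each library at Day 14, and the replicate number is the batch number of the labels. The mutant Day 10 library pooled 3 embryos that had received Cas9 and a pair of guide RNAs against ISL1, a LIM-homeodomain transcription factor gene, at the zygote stage. Such embryos are mosaic and carry several different deletions, and this is the only library of that genotype and day. Embryos of both genotypes had been frozen as blastocysts, thawed and cultured without a mother. Since most libraries were pools of embryos, p-values measure only the spread between libraries.

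In primates the extraembryonic mesenchyme fills the space between the trophoblast and the embryo with its amnion and yolk sac, and appears before the gastrulating embryo has laid down much of its own mesoderm. Its cells are spindle-shaped, lie in a loose collagen-rich matrix, and go on to form the core of the placental villi, the connecting stalk and the outer coats of amnion and yolk sac. Its blood vessels and early blood cells arise within the same tissue.

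The 7 libraries held between 36654977 and 164808415 UMIs, with a median per cell between 24720 and 142180. Removal of ambient RNA by the authors had taken away between 0.196% and 2.98% of the UMIs. The libraries shared between 0 and 3 cell barcodes over the 21 pairs, and no barcode of a member was shared. ISL1 itself stood in the members at 25.5 CPM (UMIs of a gene per 1000000 UMIs, summed over the members of a library) in the mutant Day 10 library, 13.2 at WT Day 12, and 5.86 and 5.52 at WT Day 14. Where the 3′ tags lie relative to the edited stretch was not examined, so these levels do not check the genotype. In members of the later mutant libraries ISL1 stood between 0.441 and 1.98 CPM.

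Members were found in 4 of the 7 libraries. At Day 10, 0 of 658 and 0 of 670 WT cells were members, with exact 95% intervals up to 0.559% and 0.549%. In the mutant Day 10 library 47 of 769 cells were members, or 6.11% (exact 95% interval 4.52% to 8.04%, which like the other intervals covers counting error only). The limits that a count of 0 allowed in the WT libraries lay below this interval. Of the 47 members 40 were doublet candidates, which had over 2 times the median UMIs of the members of their library or UMIs of at least 2 trophoblast genes. A single UMI of a gene was enough, so deeper cells meet this criterion more readily. Median UMIs per member were 98532 here and 19943 to 52982 in the WT libraries with members. With each member thinned to 10000 UMIs, PGF was seen in 13 of the 47 and CGA in 9, against 41 and 32 before. In WT members thinned in the same way, CGA was seen in 46 of 189 at Day 12, and in 8 of 158 and 69 of 343 at Day 14. PGF was seen in 41 of the 189 and, in Day 14 replicate 2, in 150 of the 343. The part of depth was not tested. The 7 members left without the candidates made up 0.910% of the cells (0.367% to 1.87%), an interval that reached below the WT limits. With 1 mutant library at Day 10, no test between the genotypes was made.

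At Day 12 the WT libraries differed from each other. Replicate 1, a single embryo, had 0 of 325 cells in the class (interval up to 1.13%), and replicate 2 had 190 of 981, or 19.4% (16.9% to 22.0%). Of the cells of replicate 1, 90.5% were of the trophoblast class, and 31 cells lay outside it. At Day 14 replicate 1 held 158 members among 3176 cells, or 4.97% (4.24% to 5.79%), and replicate 2 held 350 among 1384, or 25.3% (23.0% to 27.7%). Within the replicate numbers the share went from 0% at Day 12 to 4.97% at Day 14 in replicate 1 and from 19.4% to 25.3% in replicate 2, so that both were higher at Day 14 while the replicates of 1 day lay further apart than the days.

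**Figure D1:**
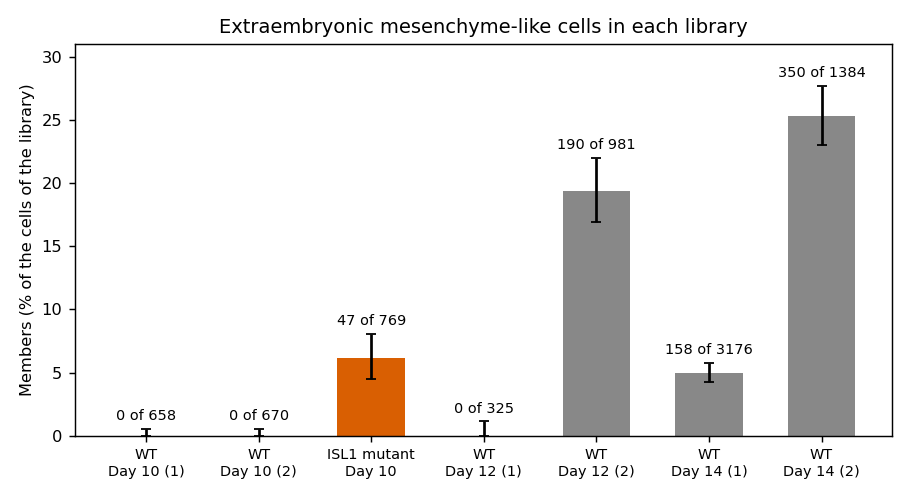
Members as a percentage of the cells of each library (bars, exact 95% binomial intervals), with the number of members and of cells above each bar and the ISL1 mutant library in orange. The 3 WT libraries without members and the spread between 4.97% and 25.3% at Day 14 are visible.

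Trophoblast-class cells made up between 51.5% and 90.5% of a library. Outside the trophoblast class, members made up 51.6% of cells in WT Day 12 replicate 2, 20.4% and 69.7% at WT Day 14, and 15.0% in the mutant Day 10 library. The mesenchyme genes were unequally present in the 3 WT libraries without members. COL3A1, the fibrillar collagen of loose tissue, and POSTN, a matrix protein that binds collagen, had 0 UMIs in all 3, and HGF, the hepatocyte growth factor that mesenchyme releases, had 15, 0 and 0. COL6A2, a chain of the beaded filaments around cells, had UMIs in 60.0% and 59.4% of the cells at Day 10 and 71.7% in Day 12 replicate 1. COL1A1, the chief fibrillar collagen, had UMIs in 12.6%, 20.0% and 4.92% of the cells in the same order. CCDC80, a matrix protein, had UMIs in 20.9% of the cells of Day 12 replicate 1. Between 2 and 6 cells of each of these libraries had UMIs for 3 or more of the 7 genes, and no cell exceeded 4. HAND1, which is not among the score genes, was at the same time present in 60.9% to 66.9% of the cells of these libraries.

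Most members were far from the border of the rule. All 7 genes were seen in 487 members, 6 in 195, 5 in 38, 4 in 14 and 3 in 11. In 54 members the mesenchyme score led the next score by less than 0.5, and 32 of these were among the 47 mutant members, against 7, 5 and 10 at WT Day 12 and Day 14. The 11 members with exactly 3 genes had a median mesenchyme score of 0.392 and a median next score of 0.248. A single cell, in the mutant library, had the mesenchyme score highest with UMIs for only 2 genes and stayed outside, at 0.457 against 0.345. Another 11 cells stayed outside because a different score was higher by less than 0.1.

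The epiblast score was the next highest in 40 of 47 mutant members, 169 of 190 members at WT Day 12, and 125 of 158 and 162 of 350 at WT Day 14. All 5 epiblast genes had UMIs in 20 of the 47 mutant members, in 10 of 190 at WT Day 12, and in 2 of 158 and 0 of 350 at WT Day 14. Median UMIs per member ran in nearly the same order, with 98532 in the mutant library, 32548.5 at WT Day 12, and 52982 and 19943 at WT Day 14. The part of depth in these counts was not tested.

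**Figure D2:**
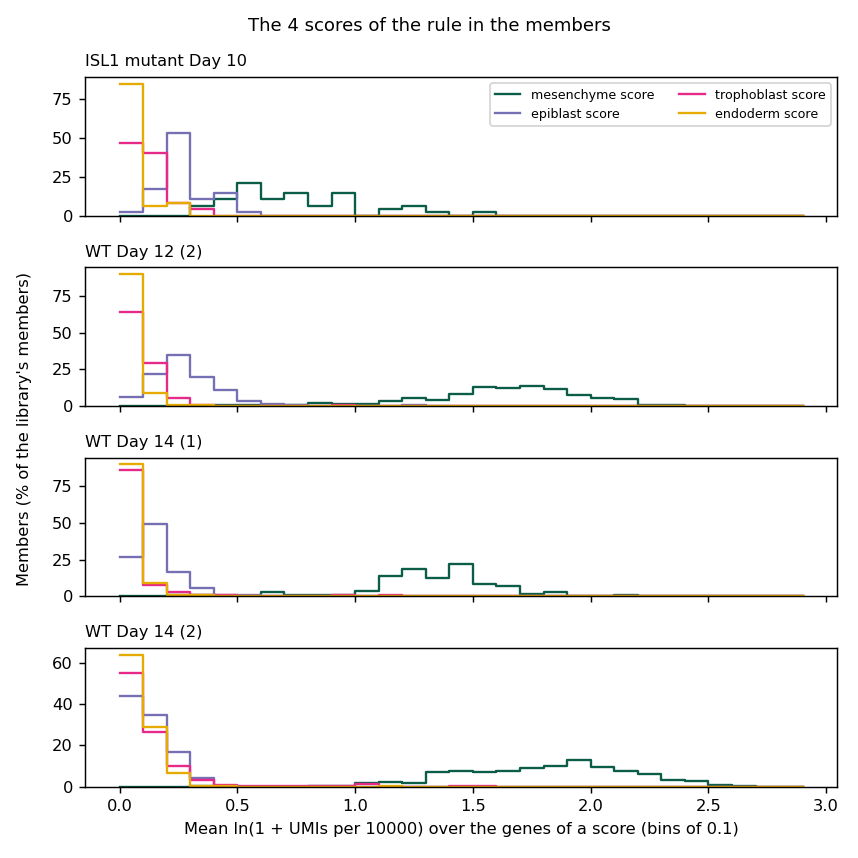
Distribution of the 4 scores over the members of each library (x axis, mean ln(1 + UMIs per 10000) in bins of 0.1, y axis, percentage of the members of the library). The mesenchyme score has its median at 0.708 in the mutant Day 10 library and between 1.35 and 1.85 in the 3 WT libraries, so that the distributions of mesenchyme and epiblast score lie closest together in the mutant library.

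The label was set beside 14 genes of ExE-Mech that the rule had not used. In the 3 WT libraries 12 of them were higher in members than in every other class, and in all 4 libraries 11 were. Members had been chosen by other genes of the same cell type in the same data, so these counts are a description and no independent test. The share of all genes above every other class is not given. PITX1, a homeobox factor, stood at 1567 CPM in the mutant Day 10 library, 1219 at WT Day 12, and 863 and 976 at WT Day 14, while its highest level in another class of the same libraries, always the endoderm class, was 310, 175, 71.6 and 107 CPM. VIM, the intermediate filament vimentin, stood at 820, 1930, 4397 and 1778 CPM in the same order, against at most 873 CPM in another class. LGALS1 was lower in mutant members (2156 CPM) than in epiblast-class cells of that library (2780 CPM).

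The remaining exceptions were FN1 and VCAN, the matrix proteins fibronectin and versican, which were higher in the endoderm class in all 4 libraries. FN1 reached 344 CPM in mutant members, 516 at WT Day 12, and 640 and 897 at WT Day 14, against 2788 to 4658 CPM in the endoderm class. Of the genes that the study notes as shared with endoderm, LUM was highest in members in 2 of the 4 libraries. It stood at 540 CPM in the endoderm class and 42.0 CPM in members of WT Day 14 replicate 1, and at 5.42 and 675 CPM in replicate 2, so that the order of the classes turned between the replicates. NID2, a basement membrane linker, stood at 85.2 CPM in mutant members, 189 at WT Day 12, and 40.9 and 210 at WT Day 14, below the endoderm class in every library. ETS1, FOXF1, PDGFRA and PODXL had no identifier paired with the symbol and were not analysed here.

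Some markers of other cell types were at or near 0, and others were seen in many members. FOXH1 had UMIs in 47 and CDX2 in 44 of the 47 mutant members, the amnion marker ANXA3 in 39 and the haematopoietic marker CD53 in 31. At WT Day 12 the same genes had UMIs in 112, 123, 38 and 24 of 190 members. TEK had UMIs in all 47 mutant members and in 174 of the 190 at WT Day 12. The depth of these libraries differed. Of 14 embryonic mesoderm markers, TBXT, EOMES, GSC and MSGN1 stayed under 1 CPM in the members of every library. The list summed to between 111 and 317 CPM, of which RSPO3, CDX2 and FOXH1 made up most. Of 12 amnion markers WNT6, GABRP and VTCN1 stayed under 1 CPM, and the sum of 537 to 1919 CPM came almost wholly from KRT19. The 9 measured haematopoietic and endothelial markers summed to between 114 and 153 CPM, with TEK, the receptor of the angiopoietins, at 69.2 CPM in the mutant Day 10 library, 113 at WT Day 12, and 56.8 and 79.4 at WT Day 14. CDH5, the cadherin of endothelial junctions, stayed under 4 CPM.

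The endoderm genes FOXA2 and SOX17 had no more than 0.338 CPM in members, while APOA1 stood at 38.1 CPM in the mutant Day 10 library, 7.18 at WT Day 12, and 9.69 and 48.4 at WT Day 14, against 46377 to 61430 CPM in the endoderm class. Trophoblast RNA was low as well. CGA, the hormone subunit of the trophoblast, stood between 27.0 and 80.2 CPM in members and between 6987 and 11128 CPM in the trophoblast class. At least 2 trophoblast genes had UMIs in 40 of the 47 mutant members, 90 of 190 at WT Day 12, and 58 of 158 and 117 of 350 at WT Day 14. Without the doublet candidates, which deeper cells become more readily, 7, 97, 99 and 227 members were left in the same order.

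The 20 named genes with the largest ratio of members to the highest other class (mean CPM of the 3 WT libraries, 25 CPM added to both) had ratios from 4.17 to 15.6. PMP22, a membrane protein of the myelin sheath and of growth-arrested fibroblasts, led, followed by the sulfotransferase SULT1C4 with 14.5 and the metalloproteinase inhibitor TIMP1 with 11.2. Among them were collagen and microfibril genes (COL6A3, COL5A2, FBN2), genes of secreted proteins that act on signalling (WNT2, IGFBP3, ISM1), the Wnt inhibitor APCDD1, proteases (PLAU, MMP28) and transcription factors (PITX1, MEIS2, ZEB2, CREB3L1). TEK had the lowest of the 20 ratios.

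**Figure D3:**
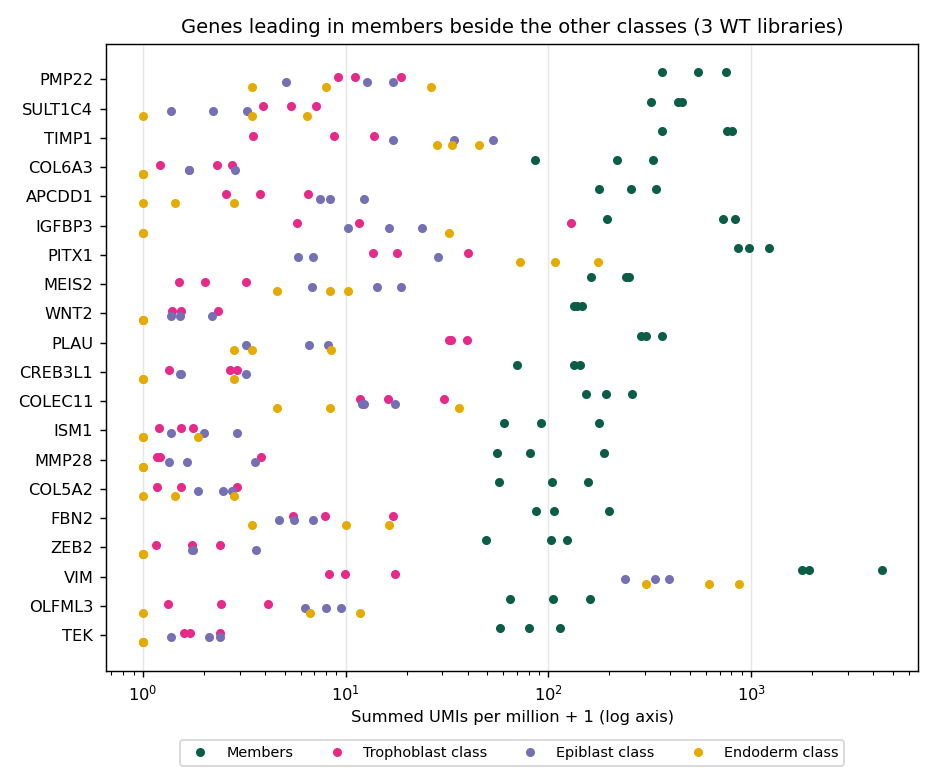
Levels of the 20 leading genes in members (green), trophoblast class (pink), epiblast class (violet) and endoderm class (yellow) of the 3 WT libraries with members, as CPM + 1 on a log axis with 1 point per library. For each gene the 3 member points lie to the right of the points of the other classes.

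SULT1C4 stood at 186 CPM in the mutant Day 10 library, 319 at WT Day 12, and 454 and 434 at WT Day 14, and no more than 6.17 CPM in any other class. WNT2, a ligand of the canonical Wnt pathway, stood at 27.7 CPM in the mutant library, 132 at WT Day 12, and 138 and 145 at WT Day 14. The 3 WT values of WNT2 had a mean of 139 CPM ± 6.40 (SD, n = 3). The value of the 1 mutant library was lower than each of them (edgeR log2 difference -2.25, SE 0.35) and differs from them in day as well as genotype. At 1% it was not called in edgeR but was called in DESeq2. No other class exceeded 3.96 CPM.

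The 7 genes of the mesenchyme score varied widely between libraries. COL3A1 stood at 80.0 CPM in the mutant Day 10 library, 841 at WT Day 12, and 634 and 1996 at WT Day 14. POSTN stood at 45.6 CPM in the mutant library, 181 at WT Day 12, and 92.5 and 970 at WT Day 14. For both genes the WT Day 14 replicates lay on either side of WT Day 12, 3.13-fold apart for COL3A1 and 10.0-fold apart for POSTN (folds between libraries in this text have 5 CPM added to each level).

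The other score genes were closer together. COL1A1 stood at 154 CPM in the mutant library, 319 at WT Day 12, and 407 and 501 at WT Day 14. COL6A2 stood at 325, 551, 394 and 614 CPM in the same order. HGF stood at 400 CPM in the mutant library, 1372 at WT Day 12, and 646 and 794 at WT Day 14. None of the 3 had a WT library as low as the mutant one.

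CCDC80 stood at 41.7 CPM in the mutant library, 512 at WT Day 12, and 330 and 357 at WT Day 14. HAND2, a basic helix-loop-helix factor of mesenchyme, stood at 92.3 CPM in the mutant library, 220 at WT Day 12, and 127 and 146 at WT Day 14. All 7 genes were lowest in the mutant library, which the rule itself reads, so that nothing is drawn from it.

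**Figure D4:**
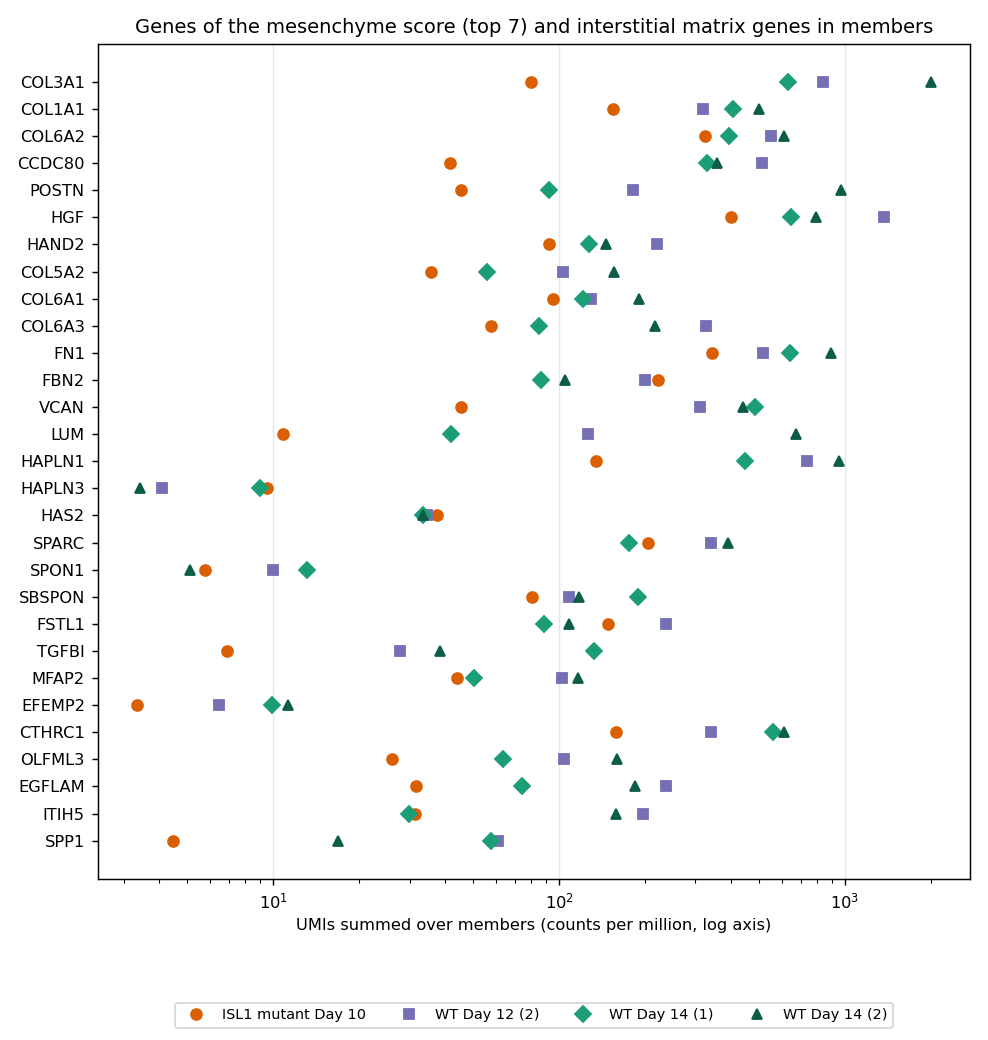
CPM (log axis) of the 7 genes of the mesenchyme score and of the 22 interstitial matrix genes outside it that were tested, in the members of the mutant Day 10 library (orange circles), WT Day 12 replicate 2 (violet squares) and WT Day 14 replicates 1 and 2 (light green diamonds and dark green triangles). Of the 22 genes outside the score, the orange circle is the leftmost point for 15 and the rightmost for FBN2, HAPLN3 and HAS2, and LUM and POSTN show the widest gaps between the WT Day 14 libraries.

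Among 22 interstitial matrix genes outside the score that entered the comparison, LUM, the collagen-binding proteoglycan lumican, differed most between the WT Day 14 replicates. It stood at 10.8 CPM in the mutant Day 10 library, 126 at WT Day 12, and 42.0 and 675 at WT Day 14, a difference of 14.5-fold between the Day 14 replicates. With each cell thinned to 10000 UMIs, 6.38% of mutant members, 39.2% of members at WT Day 12, and 15.8% and 77.0% at WT Day 14 had a LUM UMI. In trophoblast-class cells thinned in the same way the share was at most 2.06%, and in endoderm-class cells it was 28.0% in the mutant library, 23.5% at WT Day 12, and 77.1% and 4.00% at WT Day 14. The mutant share was 3 of 47 members, and the 7 mutant members left without the doublet candidates had no LUM UMI, which are too few cells to set apart from the 9 of 47 with a LUM UMI before thinning.

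In all, 9 of the 22 matrix genes were at least 2-fold higher in replicate 2 than in replicate 1 of Day 14 and 2 were at least 2-fold lower, where 2.47% and 1.62% of the 11164 genes tested were. COL5A2, a chain that starts fibril formation, stood at 56.0 and 156 CPM in these replicates, and COL6A3 at 85.4 and 217 CPM. HAPLN1, which ties hyaluronan to proteoglycan, stood at 446 and 955 CPM. The replicates of Day 14 also differed in their mitochondrially encoded RNA. Its 13 genes summed to 22950 CPM in members of replicate 1 and 67812 CPM in replicate 2, against 62418 at WT Day 12 and 81376 in the mutant library, and all 13 were at least 2-fold higher in replicate 2 than in replicate 1. In replicate 1 the sum was also low in the other classes, at 12011 to 31881 CPM. Its part in the differences between the replicates was not tested.

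Basement membrane genes were measured for 6 of 14 listed symbols. COL4A1, a chain of the sheet-forming collagen, stood at 208 CPM in the mutant library, 433 at WT Day 12, and 172 and 580 at WT Day 14. COL4A2, its partner, stood at 317, 519, 280 and 456 CPM in the same order. Both were lowest in WT Day 14 replicate 1 and not in the mutant library. COL18A1, a heparan sulfate collagen, was the 1 gene of the 6 above every WT library in the mutant one, where 23.5% of all genes were, with 204 CPM against 154.8 at WT Day 12 and 85.7 and 113 at WT Day 14.

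The machinery that folds and secretes collagen was present throughout. SERPINH1, the collagen chaperone, stood at 734 CPM in the mutant library, 879 at WT Day 12, and 802 and 784 at WT Day 14, so that its level moved far less than that of the collagens. PPIB, a prolyl isomerase of the endoplasmic reticulum, stood at 853, 1107, 1305 and 1248 CPM in the same order. P4HA1, a subunit of the enzyme that hydroxylates collagen prolines, stood at 154 CPM in the mutant library, 708 at WT Day 12, and 219 and 439 at WT Day 14. Of the 13 genes of this list tested, 9 were lower in the mutant library than in every WT library, as were 28.6% of all genes tested.

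Of the transcription factors, 13 of 33 listed symbols could be followed. HAND1, a basic helix-loop-helix factor of extraembryonic mesoderm and trophoblast, stood at 1516 CPM in the mutant library, 693 at WT Day 12, and 382 and 528 at WT Day 14, and was higher in members than in every other class in all 4 libraries. MEIS2, a homeobox cofactor, stood at 132, 241, 162 and 248 CPM in the same order. SNAI2, a repressor of epithelial genes, stood at 94.5 CPM in the mutant library, 87.0 at WT Day 12, and 88.0 and 74.4 at WT Day 14 and hardly moved. MSX1, a target of BMP signalling, stood at 90.6 CPM in the mutant library, 44.9 at WT Day 12, and 21.1 and 15.0 at WT Day 14.

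Among 10 secreted signals tested, MDK, a heparin-binding growth factor, stood at 638 CPM in the mutant library, 861 at WT Day 12, and 987 and 1207 at WT Day 14. BMP4, a ligand that patterns the neighbouring epiblast and amnion, stood at 165, 270, 99.0 and 216 CPM in the same order and was higher in members than in each other class in every library. Its highest level in these other classes was 103 CPM, in the epiblast class of WT Day 12 replicate 2. Amnion, which the paper describes as a source of BMP4, had no class of its own, so members were not compared with it.

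Genes whose products dampen or bind signals included BAMBI, a decoy receptor for BMP and TGF-beta ligands. It stood at 988 CPM in the mutant library, 776 at WT Day 12, and 889 and 783 at WT Day 14, and in the other classes reached at most 247, 190, 143 and 452 CPM in the same order. IGFBP3, which binds insulin-like growth factors, stood at 77.8 CPM in the mutant library, 195 at WT Day 12, and 828 and 728 at WT Day 14. APCDD1, a Wnt inhibitor at the membrane, stood at 84.5, 178, 339 and 256 CPM in the same order. RSPO3, a Wnt enhancer, stood at 13.6 CPM in the mutant library, 127 at WT Day 12, and 285 and 66.8 at WT Day 14.

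Receptors and adhesion molecules, 14 of which were tested, included NRP2, a coreceptor of semaphorins and VEGF, with 281 CPM in the mutant library, 338 at WT Day 12, and 276 and 228 at WT Day 14. CDH2, N-cadherin, stood at 91.9 CPM in the mutant library, 749 at WT Day 12, and 149 and 143 at WT Day 14, and was higher in the endoderm class in every library, at 735 to 2382 CPM. Of the cytoskeletal genes, TAGLN, an actin-binding protein of contractile cells, stood at 111, 403, 788 and 327 CPM in the order used before. The 23 proliferation genes, led by STMN1 and PTTG1, summed to between 3007 and 4245 CPM, and MKI67 stood at 180 CPM in the mutant library, 181 at WT Day 12, and 157 and 130 at WT Day 14.

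Whether WT members changed from Day 12 to Day 14 was tested with edgeR on summed UMIs of the 4 libraries. None of the 11164 genes passed a false discovery rate of 1% (0%), with 723 at an unadjusted p under 0.05 and a smallest adjusted p of 0.676, and each of the 18 lists outside the score genes had 0 genes passing in either direction. DESeq2 called 6 genes. Of these, 3 have a symbol, and each moved in the same direction in both Day 14 libraries. CDH2 (levels above) changed by -2.25 on the log2 scale (SE 0.43, DESeq2 adjusted p 0.000437), where edgeR gave -2.27 (SE 0.33, adjusted p 0.676). IGFBP3 changed by 2.11 (DESeq2 adjusted p 0.00122). S100A6, a calcium-binding protein, stood at 660 CPM at Day 12 and 54.0 and 149 at Day 14 and changed by -2.63 (DESeq2 adjusted p 0.00122). With 1 library at Day 12, these differences rest on the spread of the other libraries.

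By size alone, 30 genes (0.269%) were at least 2-fold higher in both Day 14 libraries than at Day 12 and 135 (1.21%) at least 2-fold lower. PCOLCE, which assists the cleavage of procollagen, stood at 5.91 CPM at WT Day 12 and 30.2 and 39.8 at WT Day 14. EPCAM, an epithelial adhesion molecule, stood at 166 CPM at WT Day 12 and 45.5 and 51.4 at WT Day 14, and TBX3, a T-box factor, at 121 against 23.3 and 41.7. FSTL1 was the single interstitial matrix gene lower by this measure, and none was higher. The median log2 change (5 CPM added) was -0.09 over the 22 matrix genes, -0.58 over the 6 basement membrane genes and -0.05 over all genes tested.

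It was then asked whether the change from Day 12 to Day 14 differed between members and the other classes of the same libraries. Against the trophoblast class 0 of 13214 genes (0%) passed in edgeR, with 404 at an unadjusted p under 0.05, and DESeq2 called 5, none with a symbol. Against the endoderm class 22 of 11576 genes (0.190%) passed, 9 with a more positive change in members and 13 with a more negative one. At Day 12 the endoderm class consisted of 19 cells of 1 library, so the fit rests on the spread of the Day 14 libraries. Of the 22 genes 13 outside the score have a symbol.

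HAND1 had the smallest p, but its value rested on 1 cell. It stood in the endoderm class at 131 CPM at Day 12 and 2.64 and 5.42 at Day 14, and in members at 693 CPM and then 382 and 528, a difference in log2 change of 4.41 (SE 0.50, edgeR adjusted p 1.48e-08). All 53 HAND1 UMIs of the endoderm class at Day 12 lay in 1 of its 19 cells, and the 16 endoderm-class cells of WT Day 12 replicate 1, which was not in this fit, had 0, so that no change of the endoderm class is read from it. IL6ST, the shared receptor subunit of the interleukin-6 family, stood at 259 CPM at Day 12 and 166 and 470 at Day 14 in members and at 210, 27.7 and 70.4 in the endoderm class (2.21, SE 0.42, adjusted p 0.00180). IL6ST had UMIs in 14 of the 19 endoderm-class cells at Day 12 and in 18 of 48 and 19 of 35 at Day 14.

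EPCAM was lower at Day 14 in members (levels above) and stood at 805, 938 and 915 CPM in the endoderm class (-2.13, SE 0.35, adjusted p 0.000159). S100A6 stood at 3397, 2445 and 1132 CPM in the endoderm class (-2.00, SE 0.43, adjusted p 0.00795), with 692 of its 1376 UMIs at Day 12 in 1 cell. WFDC2, a secreted protease inhibitor, stood at 191, 160.3 and 101 CPM in members and 210, 1416 and 594 in the endoderm class (-2.87, SE 0.37, adjusted p 5.09e-07), and 670 of its 1423 UMIs in members of WT Day 14 replicate 1 lay in 1 cell. NPC2, a lysosomal cholesterol carrier, stood at 275, 61.0 and 122 CPM in members and 867, 975 and 789 in the endoderm class (-1.84, SE 0.38, adjusted p 0.00542). The remaining named genes (HSD17B2, SPINK1, CA4, APOA2, DNAH2, EPSTI1, NLRP7) stood at no more than 13.8 CPM in WT members at Day 12 and Day 14. NLRP7, a gene of the early embryo, stood at 13.8, 1.80 and 3.42 CPM in members and 351, 250.5 and 325 in the endoderm class. HSD17B2, a steroid dehydrogenase, had 1 UMI in members at Day 12, too few to give a direction, and 27 of its 43 UMIs in the endoderm class of Day 12 lay in 1 cell. Without the library as a block 0 genes passed, and with DESeq2 4 (HAND1, WFDC2, CA4 and EPCAM).

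No WT cell of Day 10 met the rule, so genotype and day cannot be told apart for the mutant members in what follows. The paper does report Day 10 cells that it takes as likely extraembryonic mesoderm, and first finds ExE-Mech at Day 12. Those Day 10 cells were not followed here. The mutant members were set beside the 3 WT libraries of Day 12 and Day 14, a comparison that was chosen after the members had been counted. With 1 library each for mutant Day 10 and WT Day 12, the spread in the 4-library fit comes from the WT Day 14 libraries. In edgeR 0 of 11164 genes (0%) passed 1%, with 989 at an unadjusted p under 0.05, and 7 (0.0627%) passed 5%. DESeq2 called 56 genes at 1%, 21 higher and 35 lower in the mutant library. By size, 91 genes (0.815%) were at least 2-fold above and 102 (0.914%) at least 2-fold below every WT library.

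Of 9 epithelial genes tested, 7 were above every WT library (23.5% of all genes were) and 4 at least 2-fold. KRT18 stood at 3734 CPM in the mutant library, 752 at WT Day 12, and 682 and 321 at WT Day 14, 6.34-fold above the WT mean. KRT8, the partner keratin, stood at 2370, 673, 569 and 362 CPM in the same order. EPCAM stood at 436 CPM in the mutant library and between 45.5 and 166 in the WT libraries, and the adhesion receptor CXADR at 124 CPM against 10.3 to 25.2.

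In the other classes of the mutant library KRT18 stood at 1629 CPM in the trophoblast class, 1147 in the epiblast class and 2001 in the endoderm class. KRT8 stood at 1314, 685 and 1493 CPM in these classes, so that both keratins were highest in members. In the WT Day 10 libraries, which had no members, KRT18 stood between 1912 and 4881 CPM in the 3 other classes. EPCAM stood in the mutant library at 95.6, 319 and 1035 CPM in trophoblast, epiblast and endoderm class, and CXADR at 5.91, 222 and 302, so that members lay between the classes for both. In the 7 mutant members left without the doublet candidates KRT18 stood at 6049 CPM and EPCAM at 404, against 328 to 694 and 34.6 to 119 in WT members chosen in the same way. In these members 5 of the 9 epithelial genes were at least 2-fold above every WT library, where 1.93% of all genes were.

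Of the transcription factors 6 of 13 were above every WT library and 2 below, where 23.5% and 28.6% of all genes were. HAND1 and MSX2 were at least 2-fold above, and HAND1 exceeded the WT mean 2.82-fold. PITX1, TBX3, SNAI2 and MSX1 were also above. Of 8 embryonic mesoderm markers tested, 3 were at least 2-fold above every WT library and 1, RSPO3, at least 2-fold below, where 0.815% and 0.914% of all genes were. FOXH1, a cofactor of nodal signalling, stood at 109 CPM against 12.2 to 39.1, CDX2, a caudal homeobox factor, at 123 against 8.45 to 39.1, and CDX4 at 11.7 against no more than 0.901. In all, 5 of these 8 were above every WT library and 2 below, where 23.5% and 28.6% of all genes were. Of the other markers on that list TBXT, EOMES and MSGN1 had 0 UMIs in the mutant members, and GSC 1. ID2, a response gene of BMP signalling, stood at 237 CPM in the mutant library, 102 at WT Day 12, and 39.1 and 48.8 at WT Day 14.

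Of 22 interstitial matrix genes 15 were below every WT library (28.6% of all genes were), 8 of them at least 2-fold, while FBN2, HAPLN3 and HAS2 were above. VCAN stood at 45.4 CPM in the mutant library, 312 at WT Day 12, and 483 and 441 at WT Day 14, 8.28-fold below the WT mean. HAPLN1, at 134 CPM against 446 to 955, was 5.16-fold lower. LUM, seen in 9 of 47 mutant members, was 18.1-fold lower, and 5.64-fold without WT Day 14 replicate 2. CTHRC1, a secreted protein of matrix-forming cells, stood at 159 CPM against 340 to 615. The median log2 difference was -1.14 over the 22 matrix genes, 1.27 over the 9 epithelial genes and -0.04 over all genes tested. In the 7 mutant members left without the doublet candidates VCAN stood at 17.2 CPM and HAPLN1 at 25.9, and 9 of the 22 genes were at least 2-fold below every WT library, where 2.22% of all genes were.

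APCDD1, TWSG1, IGFBP3 and RSPO3 were at least 2-fold below every WT library (0.914% of all genes were), with none of the 13 signal antagonists and binding proteins at least 2-fold above. Of 19 cytoskeletal genes VIM, TAGLN, MYL9 and TPM1 were at least 2-fold below and none at least 2-fold above. TPM1, a tropomyosin, stood at 262 CPM in the mutant library and at 631, 666 and 659 in the WT libraries. In all, 8 of the 19 were below every WT library and 4 above, where 28.6% and 23.5% of all genes were. Among the 4 was S100A6, with 1015 CPM against 54.0 to 660.

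**Figure D5:**
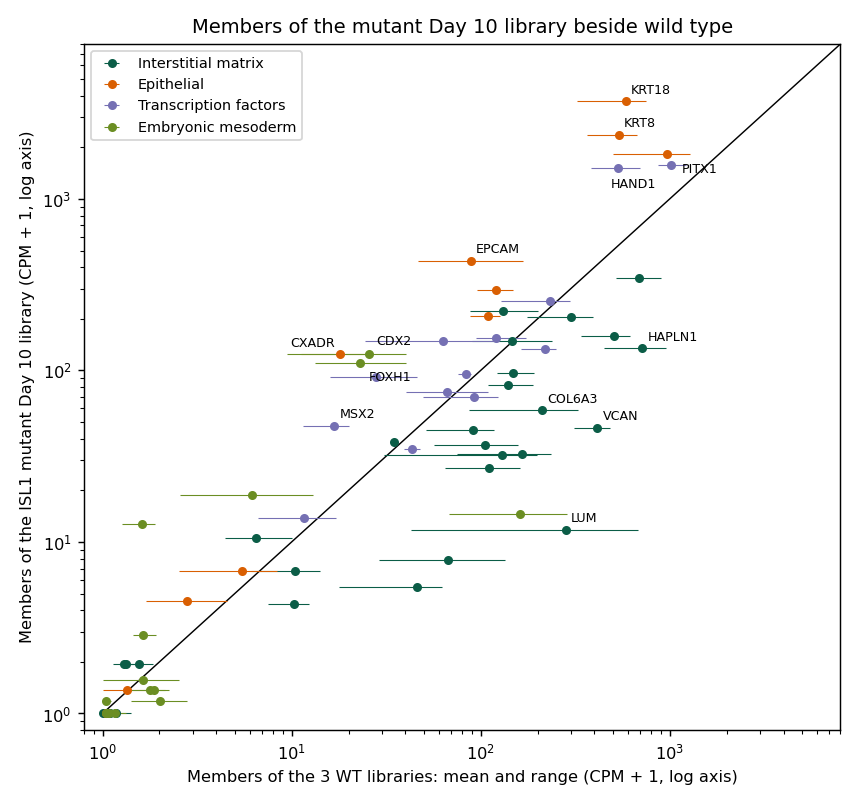
CPM + 1 of members in the mutant Day 10 library (y axis) against the mean over the 3 WT libraries (x axis, horizontal bars from the lowest to the highest library), both on log axes, for 4 gene lists, with a line of equality. Epithelial genes (orange) lie above the line from KRT18 to CXADR, and most interstitial matrix genes (dark green) lie below it, VCAN and LUM farthest.

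The 4 later mutant libraries were looked at for the same genes. In their members KRT18 stood between 325 and 1112 CPM, EPCAM between 4.11 and 63.6, LUM between 187 and 1257, VCAN between 259 and 736 and IGFBP3 between 837 and 4435. The mutant Day 10 value lay outside each of these 5 ranges. The 5 genes were chosen because they stood out in that library, and the share of all genes outside such a range is not given. Nothing is drawn from the count.

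The 3 named genes that passed 5% in edgeR also differed in other classes or were high at WT Day 10. None passed 5% with all 8 libraries sharing the spread (0 of 12678 genes, 1401 at an unadjusted p under 0.05, smallest adjusted p 0.0931). RPL14, a ribosomal protein gene whose copies may share reads, stood at 96.9 CPM in mutant members and 0.113 to 0.394 in WT members (8.95 on the log2 scale, adjusted p 0.0118), but also at 73.2 to 99.4 CPM in the other classes of the mutant library and 58.9 to 97.9 in WT Day 12 replicate 1. DMRTB1 stood at 2.05 CPM in mutant members and 54.1 to 78.2 in WT members (-4.89, adjusted p 0.0333), and at 0.594 CPM in the trophoblast class of the mutant library against 28.6 to 85.5 in that class of the WT libraries other than Day 12 replicate 1, where it was 0.520. NLRP7 stood at 102 CPM in mutant members and 1.80 to 13.8 in WT members (4.14, adjusted p 0.0333), and between 288 and 621 CPM in every class at WT Day 10.

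Cells of 1 library also differed from each other. The spread was described by the Fano factor, the variance of the UMIs of a gene over cells divided by their mean, after thinning to 10000 UMIs, with a median of 1.05 to 1.08 over all genes with a mean of at least 0.1 UMI. TAGLN was among the 5 named genes of highest Fano factor in all 4 libraries, at 25.8 in the mutant Day 10 library, 21.6 at WT Day 12, and 20.1 and 14.9 at WT Day 14. Its upper decile over members was 3 UMIs in the mutant library, 11.2 at WT Day 12, and 14 and 7.8 at WT Day 14. KRT18 had a Fano factor of 16.3 in the mutant library and 18.6 at WT Day 12, where the lower and upper deciles were 1 and 18 UMIs.

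In other genes of high Fano factor the median member had 0 UMIs and a few cells held many. ANKRD1, a target of mechanical signalling, had a Fano factor of 47.2 at WT Day 12, with up to 104 UMIs in a cell. At WT Day 14 WFDC2 led in replicate 1 with 77.3 and up to 147 UMIs in a cell. CGA and APOA1, which belong to the trophoblast and endoderm scores, had Fano factors of 59.5 in replicate 1 and 146 in replicate 2, with up to 88 and 167 UMIs in a cell. The metallothionein MT3 had Fano factors of 13.9 at WT Day 12 and 17.2 and 18.0 at WT Day 14.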

How the data were processed

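Droplet single-cell 3′ RNA-seq was available from 11 libraries, of which 7 were used. Reads had been mapped and counted by the authors with Cell Ranger 3.1.0 on an Ensembl build of the Macaca fascicularis genome. After filtering cells and genes and subtracting ambient RNA with SoupX, the authors deposited corrected UMIs, which are whole numbers without scaling and were treated here like expected counts. The deposited uncorrected counts served as an alternative. Symbols were paired with 1019 of 19367 gene identifiers through the supplementary tables, and 283 of 397 listed symbols have an identifier. Cells were not filtered further and doublets were not removed, except in an alternative.

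The members and the 22 gene lists were chosen with earlier results of these data known. UMIs were summed over the members, or over a class, of a library with at least 5 such cells and compared with edgeR 4.0.16 in R 4.3.3 (TMM scaling, its default expression filter, two-sided quasi-likelihood test, p adjusted after Benjamini and Hochberg, called at a false discovery rate of 1%). The fit over days used the 4 libraries with members. Members and another class were compared in the 3 WT libraries with an interaction of class and day and the library as a block. DESeq2 1.42.0, other scalings, filters, member rules and uncorrected counts were alternatives. The SE beside an edgeR value is approximate, the absolute log2 value divided by the square root of its F statistic. It is not the same statistic as the SE that DESeq2 fits. The fits were also run on simulated counts with known changes, from which nothing is drawn here. Named genes were up to 10 per direction that passed 1%, with at least 10 CPM and no overlap, the 20 leading genes, the genes of highest Fano factor, and list members that passed or had the highest CPM. Genes named for lying outside the range of other libraries were chosen after their values were seen. Thinning drew UMIs without replacement and left out 8 shallower members. Levels are 3′ UMI counts and are not compared between genes. No mean over WT Day 10 could be formed, so the planned tests against it were not made.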

Additional observations from a re-analysis of the deposited data

Results flagged for a closer look

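The change from Day 12 to Day 14 differed between members and endoderm-class cells for 22 genes in a test of the difference itself (edgeR, interaction of class and day, false discovery rate 1%). The difference, change in members minus change in the endoderm class on the log2 scale, had a fitted value above 0 for HSD17B2 (5.80), HAND1 (4.41), SPINK1 (4.29) and IL6ST (2.21). The values of HSD17B2 and SPINK1 rest on 1 and 2 UMIs in members at Day 12 and give no direction in members. The difference was below 0 for CA4 (-4.59), APOA2 (-4.17), DNAH2 (-3.32), WFDC2 (-2.87), EPSTI1 (-2.46), NLRP7 (-2.29), EPCAM (-2.13), S100A6 (-2.00) and NPC2 (-1.84). Some of these also rest on few UMIs. In members CA4 had 4 in WT Day 14 replicate 2 and DNAH2 2 in replicate 1, and APOA2 had 6 in the endoderm class at Day 12. With 1 library at Day 12, the fit rests on the spread of the Day 14 libraries. All 53 HAND1 UMIs of the endoderm class at Day 12 lay in 1 of 19 cells, and the other 9 of the 22 genes were a score gene or had no symbol. None of these groups was large enough to be screened for single libraries that lie far from the others.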

How the results depend on the processing

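The shares of members in the 7 libraries stayed within counting error for 46 alternative values and moved for 10, those where the denominator left out the trophoblast class (51.6%, 20.4% and 69.7% for WT Day 12 replicate 2 and WT Day 14, 15.0% for the mutant Day 10 library), those without doublet candidates, an alternative added after the data were seen (9.89%, 3.12%, 16.4% and 0.910% in the same order), and, in the mutant library, with 5 or more mesenchyme genes (4.42%) or a lead of at least 0.5 over the next score (1.95%). The count from Day 12 to Day 14 stayed at 0 in edgeR under every setting run, and was 6 in DESeq2. The count against the trophoblast class was 5 in DESeq2. The count of 22 against the endoderm class became 4 in DESeq2, 34 without a filter on low counts, 11 with uncorrected counts, 34 at a false discovery rate of 5%, and 0 with no replicate block. Of the 13 named genes of that comparison none turned its direction. Of their alternative values 50 were rated as the same and 28 no longer passed. The 50 include fits without 1 of the WT Day 14 libraries, which gave a direction but no test, so 50 is not a count of passing values. The count of 0 for the mutant Day 10 library became 56 in DESeq2, 2 with library totals alone, 23 without the filter, 2 with uncorrected counts, 2 with 4 or more mesenchyme genes, 7 at 5% (0 at 5% where all 8 libraries shared the spread), and 1 at 1% where all 8 libraries shared the spread without mutant Day 14 replicate 1 or 2. The leading Fano factors became 16.4 (mutant Day 10, TAGLN), 24.9 (WT Day 12, ANKRD1), 33.9 and 76.0 (WT Day 14, WFDC2 and APOA1) with 5000 UMIs. Counts by size depended on the CPM added. With 1 CPM or 20 CPM in place of 5, 203 or 33 genes were at least 2-fold above and 245 or 35 below in the mutant library, and 138 or 7 above and 291 or 56 below at Day 14. The cause of these shifts was not tested. Uncorrected counts changed the CPM of a mesenchyme gene by at most 2.98%.

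No paired analysis was possible because the Day 12 and Day 14 libraries with members share only replicate number 2. The 4-library fit without either WT Day 14 library has no residual degrees of freedom, so it was run for the log2 changes only and not tested. The 20-cell minimum could not be applied to the endoderm class, which had 19 cells at Day 12.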

Other observations

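In members 0 of all 11164 genes tested changed from Day 12 to Day 14 at 1% in edgeR. That no lipid carrier, glycolysis or stress gene passed is therefore no result about these genes. APOE, a lipid carrier that extraembryonic tissues make, stood at 2007 CPM in the mutant Day 10 library, 1196 at WT Day 12, and 1084 and 1213 at WT Day 14, against 9807 CPM or more in the endoderm class. Of 25 hypoxia and glycolysis genes tested, 2 were at least 2-fold higher in both WT Day 14 libraries than at Day 12, where 0.269% of all genes were. These were the lactate transporter SLC16A3, at 31.7 CPM at Day 12 and 104 and 71.0 at Day 14, and ANGPTL4, an inhibitor of lipoprotein lipase, at 3.24 CPM and then 14.4 and 13.9. None of the 25 was at least 2-fold lower, where 1.21% of all genes were.

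Of 11 stress genes none was at least 2-fold apart between Day 12 and both Day 14 libraries. Of all genes 0.269% were higher and 1.21% lower by this measure, so a count of 0 among 11 lies near the share of all genes. FOS, an immediate early gene, stood at 70.5 CPM in the mutant Day 10 library, 216 at WT Day 12, and 198 and 177 at WT Day 14. In the later mutant libraries the change of members from Day 12 to Day 14 gave 0 genes at 1% in edgeR, with 18 at 5% and 2128 at an unadjusted p under 0.05.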
